A study of Mus musculus with 4 samples.

Results

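The genes described here make ribosomes. They are 47 listed genes of the nucleolus and of RNA polymerase I, the enzyme that transcribes ribosomal RNA, and they were listed by name, with no threshold on signal. Of these, 44 were measured by a transcript cluster that the annotation of the array names for 1 gene, out of 30738 such genes. For each of the 44, 1 such cluster was used, that of highest mean signal. Nop56, Ebna1bp2 and Gnl3 lie only in clusters named for several genes, so no value is given for them.

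The 4 DNA microarrays were of germ cells, sorted through SSEA-1 on their surface, from gonads at embryonic day (E) 12.5, with the mesonephros removed. All embryos, labelled C57/BL6, were homozygous for the floxed Max allele, and all were exposed to tamoxifen at E8.5. F and M were female and male germ cells of embryos with no CreERT2, and FC and MC were those of embryos with the CreERT2 transgene. CreERT2 is a Cre recombinase that enters the nucleus when tamoxifen binds it. It was driven by the distal enhancer of Oct4, which is active in germ cells, and it removes an exon of Max. Each of the 4 conditions had 1 array, so no difference between a pair of arrays had a replicate check or a p-value. The number of embryos behind an array, and whether they were pooled, is not given in the sources used here.

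A ribosome starts as a long precursor RNA that RNA polymerase I makes in the nucleolus. Small nucleolar ribonucleoproteins (snoRNPs) modify this RNA, the small subunit processome cuts and folds the part that becomes the 40S subunit, and other factors build the 60S subunit. MAX is the obligate partner of the MYC proteins, which bind the E-box sequence as heterodimers. In many growing cells, genes of ribosome production are among the best known targets of MYC with MAX. MAX also pairs with the MXD proteins, MNT and MGA, which repress genes.

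Some signals of the arrays bear on the comparisons. The median signal over all clusters was 3.91 in F and 3.94 in FC, and 4.0 in M and 4.05 in MC on the log2 scale. Max itself read 10.75 in F and 10.31 in FC, and 10.64 in M and 10.33 in MC, a difference of -0.44 in females and -0.31 in males, and whether its probes cover the excised exon was not examined. The germ cell genes Ddx4 and Dazl were measured in every array, at no less than 9.04 and 15.25. Ddx4 was higher with CreERT2, by 1.13 in females and 1.04 in males, and Dazl differed by -0.04 and 0.31. The Y-linked gene Eif2s3y read 6.60 in F against 4.78 in FC, 7.90 in M and 8.54 in MC, so F held more Y-linked signal than FC although both are labelled female. All 3 Y-linked genes measured were lower in FC than in F. Of 9 endothelial markers, 8 were lower in FC than in F, with a median of -0.76, and their median difference between MC and M was 0.00. The summed linear signal of that list ranged from 1308 in FC to 2620 in M, and none of its markers can be called absent, since the files hold no detection call. Of 8 Sertoli cell markers, 7 were higher in MC than in M, with a summed linear signal of 2663 in M and 6879 in MC, or 437 and 540 without Cst9. In females 5 of them were higher in FC than in F, and Cst9 read 6.21 in F and 4.14 in FC. All 5 interstitial and Leydig cell markers were lower in FC than in F (median -0.25), and 4 were higher in MC than in M (median 0.22). Of 6 pregranulosa cell markers, 5 were higher with CreERT2 in each sex (medians 0.195 and 0.085). The summed signal of 3 platelet genes (Pf4, Ppbp and Itga2b) was 2167 in M against 218 in MC, and that of 6 leukocyte genes 148 against 190. Of 6 erythroid markers, the globin genes Hbb-y and Hbb-bh1 were lower with CreERT2 in both sexes, at -0.57 and -0.70 in females and -1.22 and -0.60 in males. The globin gene Hba-x was higher in both, at 0.80 in females and 0.57 in males. So were Alas2, at 0.24 and 0.19, and Slc4a1, at 0.06 and 0.39. The summed signal of that list was 39142 in F and 26354 in FC, and 16497 in M and 7279 in MC, with a median difference near 0 in each sex (-0.075 and 0.105). The 12 germ cell markers had median differences of 0.015 in females and 0.12 in males. They ran from -0.86 to 1.13 in females, with 6 below 0, and from -0.60 to 1.04 in males, with 5 below 0. The part of other cells or of the F array in the values below was not tested. FC minus M is given beside FC minus F as a comparison that leaves F out. It sets female against male cells, so sex and CreERT2 cannot be told apart in it. In FC minus M the germ cell markers had a median of 0.675, and the endothelial markers one of -1.300.

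Most ribosome biogenesis genes had lower signals in germ cells with CreERT2, in females and in males. Between FC and F, 41 of 44 members were below 0, and the median log2 difference was -0.46. Among all genes 50.1% were below 0 in that comparison. Between MC and M, 41 of 44 members were also below 0, with a median of -0.345, against 47.3% of all genes. Signals of at least 1.5-fold lower were found for 16 members in FC, where 2.81% of all genes reached that size, and for 10 members in MC, where 2.68% did. No member was 1.5-fold higher in either sex. Rrp9, Nolc1 and Bop1 were at least 2-fold lower in FC than in F (0.508% of all genes), and no member was 2-fold lower in MC than in M (0.475%). With quantile normalization or cyclic loess no member was 2-fold lower in females, and with median centring 5 were.

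**Figure D1:**
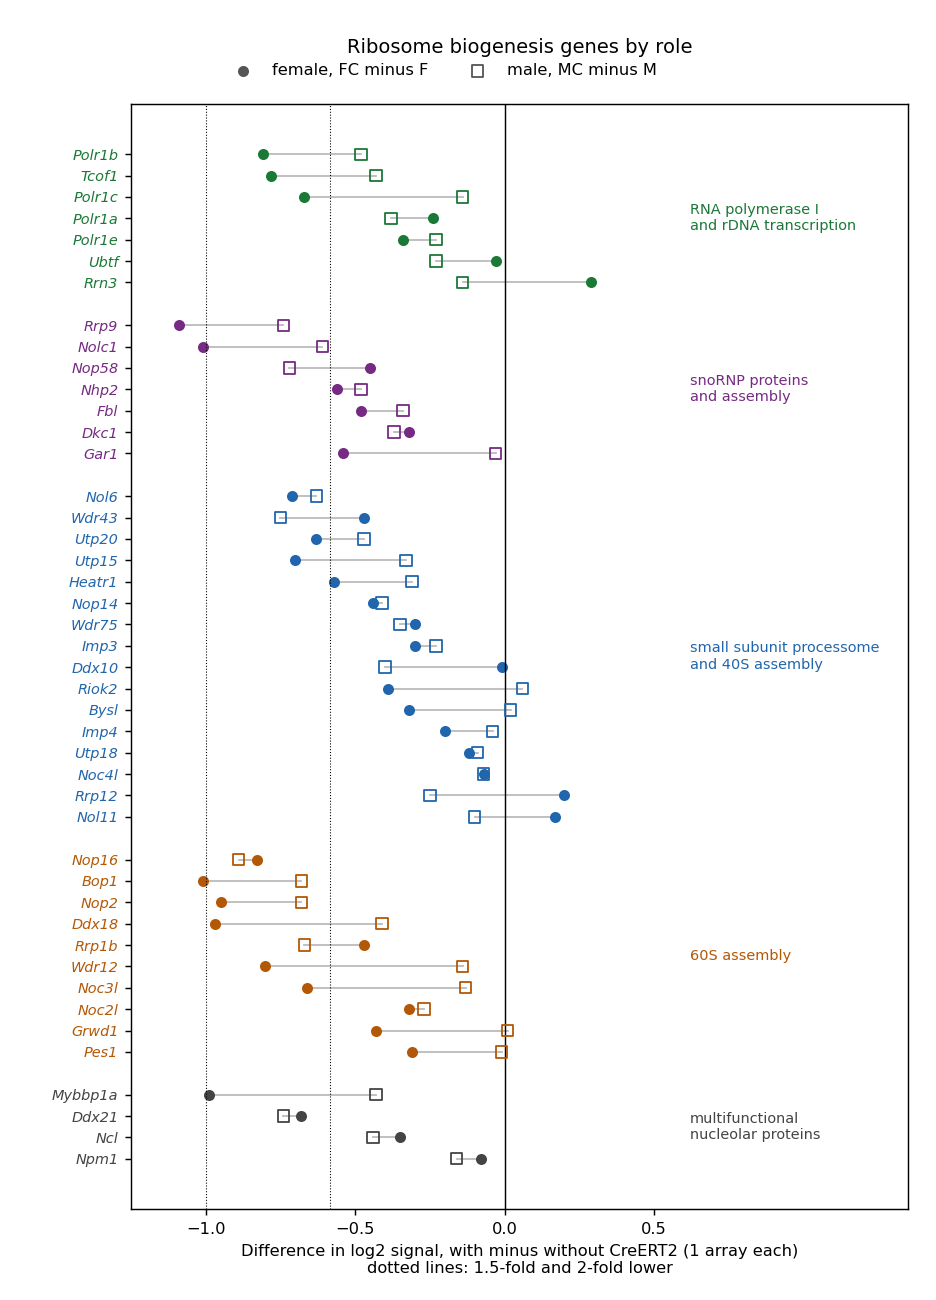
Difference in log2 signal between the arrays with and without CreERT2 for the 44 measured members, grouped by role (filled circles, FC minus F; open squares, MC minus M; 1 array per condition, so no error bars). In each sex 41 of the 44 genes lie left of 0, and Rrp9 lies farthest left in females, at -1.09.

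The members above 0 were few and differed between the sexes. In females they were Rrn3, Nol11 and Rrp12, and in males Bysl, Riok2 and Grwd1. The other 38 members were below 0 in both sexes, where 26.6% of all genes were. Nolc1, Rrp9, Nol6, Nop16, Bop1, Nop2 and Ddx21 were at least 1.5-fold lower in both sexes, 7 members where 0.397% of all genes were. With quantile normalization or cyclic loess, 2 of these, Rrp9 and Nop16, stayed at that size in both sexes. For 29 members the signals of both arrays with CreERT2 lay below those of both arrays without it, whatever the sex, and no member showed the opposite order. Among all genes 15.3% had both CreERT2 arrays below the other two.

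Genes as bright as these were themselves more often lower with CreERT2 than dim genes were. Each member was therefore set beside the 1000 other genes nearest to it in mean signal over the 4 arrays. Of these genes of like signal, 64.7% were below 0 in FC minus F and 68.9% in MC minus M. Their medians around the single members ran from -0.15 to -0.04 in females and from -0.15 to -0.07 in males. The members lay further down. In females 38 of 44 were below the median of their genes of like signal, with a median distance of -0.348 from it, and 31 were among the lowest 25%. In males 32 of 44 were below it, with a median distance of -0.21, and 25 were among the lowest 25%. The lowest 10% held 19 members in females and 10 in males. At 1.5-fold lower, the share of genes of like signal was 8.06% in females and 6.82% in males, and 47.4% of them were below 0 in both sexes. Among genes of like signal, 27.2% had both CreERT2 arrays below both others.

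**Figure D2:**
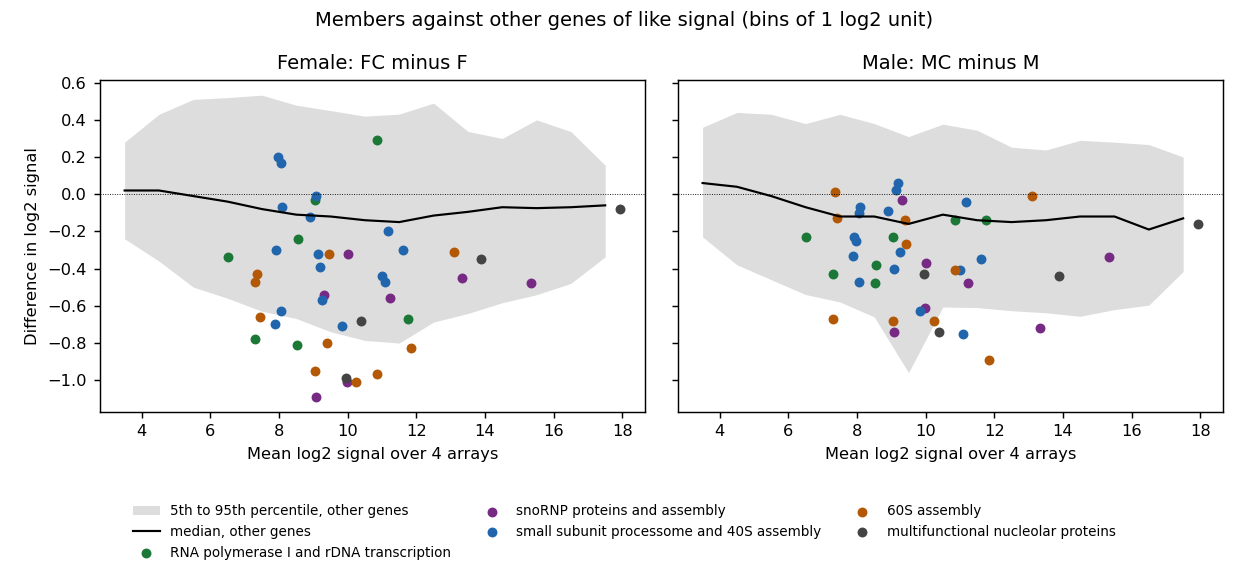
Difference in log2 signal (vertical axes) against the mean log2 signal over the 4 arrays (horizontal axes) for the 44 members, coloured by role, in females (left) and males (right). The black line and grey band give the median and the 5th to 95th percentile of all other genes in bins of 1 log2 unit, and 38 members in females and 32 in males lay below the median of their 1000 genes nearest in signal.

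The size of the difference depended on how the arrays were scaled. With cyclic loess the median of the members between MC and M was -0.21 (32 of 44 below 0, 4 at 1.5-fold lower), and with quantile normalization it was -0.20 (33 below 0, 4 at 1.5-fold lower). Measured from the median of the genes of like signal, 4 members were 1.5-fold lower in males, and the median distance was -0.21 both as deposited and after cyclic loess. In females the median was -0.335 with cyclic loess (37 of 44 below 0, 11 at 1.5-fold lower). With quantile normalization it was -0.387 (38 below 0, 13 at 1.5-fold lower), and with median centring -0.490 (18 at 1.5-fold lower). Against M in place of F, the FC array gave a median of -0.21, with 31 of 44 members below 0 and 7 at least 1.5-fold lower. In that comparison 49.5% of all genes and 46.7% of genes of like signal were below 0, and 4.66% and 9.79% were at least 1.5-fold lower. Against F in place of M, the MC array gave a median of -0.595, with 43 members below 0 (47.3% of all genes, 78.1% of genes of like signal) and 23 at least 1.5-fold lower (6.09% and 20.6%).

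A fit of the CreERT2 effect that the sexes share, with sex as a block in limma, had 2 arrays with CreERT2, 2 without it and 1 residual degree of freedom. No gene of the 30738 passed an adjusted p of 0.05 (Benjamini-Hochberg), members included, and the smallest adjusted p was 0.663. At an unadjusted p under 0.05, two-sided, there were 26 of the 44 members, all lower with CreERT2, against 7.3% of all genes. There were 18 with cyclic loess and 20 with a trend in the variance prior. The share among genes of like signal was not taken. The common difference of Nop16 was -0.86 with a standard error of 0.0838, that of Ddx21 was -0.71 with 0.0838, and that of Nol6 was -0.67 with 0.0852. With 1 residual degree of freedom these errors rest mostly on the variance that limma shares across all genes, as Noc4l had an error of 0.0819 with equal differences in the sexes.

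The promoters of the members were read for the E-box, the sequence that MYC with MAX binds. Promoters of 250 bases before to 50 bases after the start were given by RefSeq (GRCm38.p6) for 41 of the 47 members. The canonical box CACGTG, which reads the same on both strands, stood in 10 of the 41 (24.4%), against 8.09% of 27025 genes and 12.5% of the genes of like signal that have a promoter. The variant CACGCG, read on both strands, stood in 14 (34.1%), against 10.5% of all genes and 21.4% of genes of like signal. CAGCTG, an E-box of other factors, also the same on both strands, stood in 7 (17.1%), against 18.3% and 15.3%. None of these letters shows binding, and neighbouring boxes can share bases. The 10 members with CACGTG had a median difference of -0.37 in females and -0.12 in males. The 28 measured members whose promoter lacks it had -0.46 and -0.36. Bop1, Tcof1, Nol6, Fbl, Npm1 and Rrp12 had no promoter given and are in neither group. In that order they stood at -1.01, -0.78, -0.71, -0.48, -0.08 and 0.20 in females. In males they stood at -0.68, -0.43, -0.63, -0.34, -0.16 and -0.25. Members with the box ran from Mybbp1a at -0.99 to Rrn3 at 0.29 in females. The upstream stretches of Nop2 and Rrn3 are shown since these genes lay far apart in females, at -0.95 and 0.29, with the box in capitals and positions counted from the start of transcription, the base before it being position -1:
Nop2, chr6:125131633-125131882, plus strand, box from -60: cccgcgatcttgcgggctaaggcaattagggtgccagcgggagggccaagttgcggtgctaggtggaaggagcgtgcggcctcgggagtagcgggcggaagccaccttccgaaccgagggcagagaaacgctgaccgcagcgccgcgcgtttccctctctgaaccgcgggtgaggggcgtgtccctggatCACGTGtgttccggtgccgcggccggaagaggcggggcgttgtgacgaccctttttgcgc
Rrn3, chr16:13780449-13780698, plus strand, boxes from -215 and -48: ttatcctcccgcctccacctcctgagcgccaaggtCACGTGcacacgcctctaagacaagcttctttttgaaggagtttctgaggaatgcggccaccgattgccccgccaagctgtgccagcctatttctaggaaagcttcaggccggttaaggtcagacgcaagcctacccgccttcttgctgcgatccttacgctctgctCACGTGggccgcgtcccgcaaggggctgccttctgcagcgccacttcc
Nop2 differed by -0.95 in females and -0.68 in males, and Rrn3, with a pair of boxes, was the highest member in females. Windows of 30 bases around the box are shown for 3 further members that were lower in FC and MC, Utp20, Wdr43 and Mybbp1a, and for Nol11 and Grwd1, each above 0 in 1 sex:
Utp20, chr10:88826765-88826794, minus strand, box from 38: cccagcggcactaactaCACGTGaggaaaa
Wdr43, chr17:71616220-71616249, plus strand, box from 18: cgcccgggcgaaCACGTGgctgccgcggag
Mybbp1a, chr11:72441347-72441376, plus strand, box from 41: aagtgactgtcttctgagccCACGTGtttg
Nol11, chr11:107189407-107189436, minus strand, box from -43: cttgagcgttcgCACGTGgtctagactcca
Grwd1, chr7:45830740-45830769, minus strand, box from 35: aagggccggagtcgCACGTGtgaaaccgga
Of these, the box of Nol11 lies before the start, and the other boxes lie after it, within the transcribed part.

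Genes of RNA polymerase I and its initiation were lower in both sexes except for Rrn3. The median of the 7 genes was -0.34 in females and -0.23 in males, and 6 were below 0 in females and 7 in males. Polr1b, the second largest subunit of the polymerase, read 9.13 in F and 8.32 in FC, and 8.56 in M and 8.08 in MC. Both arrays with CreERT2 were below both without it, by -0.81 in females and -0.48 in males. Tcof1, the gene of treacle, which helps the polymerase and its factors to gather at ribosomal DNA, read 7.62 in F and 6.84 in FC, and 7.59 in M and 7.16 in MC. F and M lay close together there, and FC was at 58.2% of F on the linear scale. Polr1c, a subunit shared with RNA polymerase III, read 12.14 in F and 11.47 in FC, and 11.77 in M and 11.63 in MC. Its difference of -0.67 in females stood beside one of -0.14 in males, which was 0.01 after cyclic loess. Polr1a, the catalytic subunit, differed by -0.24 in females and -0.38 in males, and Polr1e, a subunit that takes part in initiation, by -0.34 and -0.23. Ubtf, the HMG-box factor that covers active ribosomal genes, was close to 0 in females at -0.03 (0.11 after cyclic loess) and at -0.23 in males. Rrn3, which makes the polymerase ready for initiation, read 11.08 in F and 11.37 in FC, and 10.56 in M and 10.42 in MC. It was the highest member in females at 0.29, above 89.7% of its genes of like signal, and its -0.14 in males was 0.01 with quantile normalization.

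All 7 measured proteins of the snoRNPs and their assembly were below 0 in both sexes, with medians of -0.54 in females and -0.48 in males. Rrp9, a protein of the U3 snoRNP that starts the processing of the precursor, read 9.57 in F and 8.48 in FC, and 9.49 in M and 8.75 in MC. This was 47.0% of F in FC, the lowest of the members in females, and 59.9% of M in MC. Only 1.8% of its genes of like signal were lower in females and 4.0% in males. Nolc1, a nucleolar chaperone of snoRNPs, read 10.67 in F and 9.66 in FC, and 10.11 in M and 9.50 in MC. Its difference was -1.01 in females and -0.61 in males, the latter -0.45 with cyclic loess. Nop58, a core protein of the box C/D particles, read 13.64 in F and 13.19 in FC, and 13.63 in M and 12.91 in MC. It was among the members with the larger difference in males, -0.72 against -0.45 in females. Fbl, the methyltransferase of those particles, differed by -0.48 in females and -0.34 in males. Of the H/ACA particles, which guide pseudouridylation, the enzyme Dkc1 differed by -0.32 and -0.37, Nhp2 by -0.56 and -0.48, and Gar1 by -0.54 in females. Gar1 stood at -0.03 in males, and at 0.12 there after quantile normalization or cyclic loess.

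The small subunit processome and the factors that finish the 40S subunit were the most mixed group. Of 16 genes, 14 were below 0 in each sex and 12 in both, with medians of -0.31 in females and -0.28 in males. Nol6, a processome protein, read 10.24 in F and 9.53 in FC, and 10.07 in M and 9.44 in MC, with differences of -0.71 and -0.63, which were -0.56 and -0.47 with cyclic loess. Wdr43, of the part of the processome that binds the precursor first, read 11.54 in F and 11.07 in FC, and 11.25 in M and 10.50 in MC. Its -0.75 was the lowest value of the group in males. Utp20, a large scaffold protein, read 8.34 in F and 7.71 in FC, and 8.32 in M and 7.85 in MC, so that F and M were nearly level and both arrays with CreERT2 lay below them. Other scaffold proteins were lower too. Utp15 differed by -0.70 in females and -0.33 in males, Heatr1 by -0.57 and -0.31, Nop14 by -0.44 and -0.41, and Wdr75 by -0.30 and -0.35. Imp3, which helps U3 to pair with the precursor, differed by -0.30 and -0.23.

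Other members of that group differed little, or had opposite signs in the sexes. Imp4, the partner of Imp3, differed by -0.20 in females and -0.04 in males, Utp18 by -0.12 and -0.09, and Noc4l by -0.07 in each sex. Each of these 3 was above 0 in males after quantile normalization and after cyclic loess. The helicase gene Ddx10 differed by -0.01 in females (0.13 after cyclic loess) and -0.40 in males. Nol11, a processome protein of vertebrates, read 8.15 in F and 8.32 in FC, and 7.96 in M and 7.86 in MC, which is 0.17 in females and -0.10 in males. Rrp12, a factor of the late maturation and export of the subunit, read 8.08 in F and 8.28 in FC, and 7.87 in M and 7.62 in MC. Its differences of 0.20 in females and -0.25 in males kept their signs under each scaling. Bysl, known from yeast as a factor of 40S maturation, read 9.34 in F and 9.02 in FC, and 9.07 in M and 9.09 in MC. The difference was -0.32 in females, and the 0.02 in males was -0.03 with median centring. Riok2, a kinase of the last cytoplasmic steps, read 9.21 in F and 8.82 in FC, and 9.33 in M and 9.39 in MC. FC alone was low there, and MC was the highest of the 4 arrays.

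Of the 5 roles, 60S assembly had the lowest median in females. Its 10 measured genes had a median of -0.73 there, all below 0 and 6 at least 1.5-fold lower, and a median of -0.34 in males, with 9 below 0. Nop16, a nucleolar protein of early 60S particles in yeast, read 12.27 in F and 11.44 in FC, and 12.25 in M and 11.36 in MC. The values formed 2 separate pairs, by CreERT2 and not by sex, and the -0.89 in males was the lowest of the members, with 0.6% of its genes of like signal lower. Bop1, which works in a complex with Pes1 and Wdr12, read 10.62 in F and 9.61 in FC, and 10.70 in M and 10.02 in MC. It was at 49.7% of F in females and at 62.4% of M in males. Nop2, an RNA methyltransferase of the large subunit, read 9.52 in F and 8.57 in FC, and 9.38 in M and 8.70 in MC, with differences of -0.95 and -0.68. The partners of Bop1 differed less evenly. Wdr12 stood at -0.80 in females and -0.14 in males, and Pes1 at -0.31 and -0.01, both values in males being above 0 after cyclic loess. The helicase gene Ddx18 stood at -0.97 and -0.41, and Rrp1b, related to a yeast factor of 60S processing, at -0.47 and -0.67. Noc2l and Noc3l, named for nucleolar complex proteins of yeast, stood at -0.32 and -0.66 in females and at -0.27 and -0.13 in males. Grwd1, whose yeast relative carries a ribosomal protein to the nucleolus, read 7.91 in F and 7.48 in FC, and 7.04 in M and 7.05 in MC. It was lower in both male arrays than in either female one, and its 0.01 in males was -0.04 with median centring.

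Among the nucleolar proteins with several roles, all 4 measured genes were below 0 in both sexes. Ddx21, an RNA helicase that takes part in polymerase I transcription and rRNA processing, read 10.82 in F and 10.14 in FC, and 10.66 in M and 9.92 in MC. Mybbp1a, a nucleolar protein that binds MYB, read 10.43 in F and 9.44 in FC, and 10.19 in M and 9.76 in MC. Ddx21 differed by -0.68 in females and -0.74 in males, which was -0.53 and -0.58 with cyclic loess, and Mybbp1a was at 50.3% of F in females and at 74.2% of M in males. Ncl, the gene of nucleolin, read 14.11 in F and 13.76 in FC, and 14.07 in M and 13.63 in MC. M minus F was -0.04 there, against -0.35 in females and -0.44 in males between arrays with and without CreERT2. Npm1, the gene of nucleophosmin, stayed between 17.82 in MC and 18.02 in F, and it differed by -0.08 in females and -0.16 in males.

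**Figure D3:**
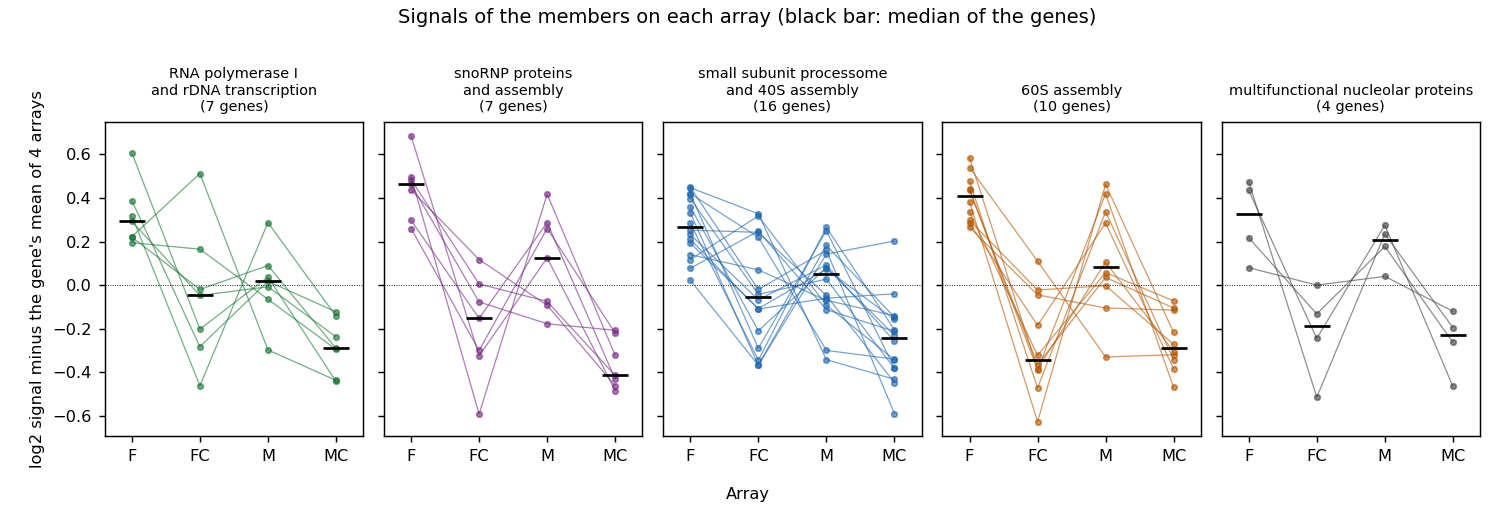
Log2 signal of each measured member on the 4 arrays (F, FC, M, MC), minus the mean of that gene over the 4 arrays, by role; each line is 1 gene and the black bar is the median of the genes. F is the highest array for 39 of the 44 genes (25.4% of all genes), and for 29 genes both FC and MC lie below both F and M.

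The F array was the highest of the 4 for 39 of the 44 members, for 25.4% of all genes and for 46.3% of genes of like signal. The members were accordingly lower in M than in F, with a median of M minus F of -0.25 and 40 below 0. Of all genes 50.4% were below 0 there, and of genes of like signal 68.2%. This comparison shares F with FC minus F. In M minus F, 11 of the 12 germ cell markers were below 0 too, with a median of -0.435. All 8 Sertoli cell markers and 7 of 9 endothelial markers were above 0. The part of cell content in M minus F was not tested. Between the arrays with CreERT2, the median of MC minus FC was -0.145, with 30 members below 0, against 45.9% of all genes and 66% of genes of like signal. Grwd1 had the lowest M minus F, at -0.87, and Utp18 followed at -0.79. Rrn3 had the lowest MC minus FC, at -0.95, where MC was at 51.8% of FC. The effect of CreERT2 in males minus that in females had a median of 0.095, above 0 for 28 members and below it for 15, where 51.8% of all genes and 47.7% of genes of like signal were above 0. Wdr12 had the largest such difference, at 0.66, and no test of it was possible with 1 array per condition. In FC minus M, the medians by role were -0.11 for RNA polymerase I, -0.44 for snoRNP proteins, -0.12 for the small subunit group, -0.44 for 60S assembly and -0.42 for the proteins with several roles.

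Other genes of ribosome production, listed by the same roles, were lower in both sexes as well. Of 99 measured genes, 90 were below 0 in females and 89 in males, with medians of -0.40 and -0.28, and 26 and 8 were at least 1.5-fold lower. Of all genes 50.1% and 47.3% were below 0, and 2.81% and 2.68% were at least 1.5-fold lower. Of the members' genes of like signal, 64.7% and 68.9% were below 0, and 8.06% and 6.82% at least 1.5-fold lower. In males the medians of the 4 lists that hold the 99 genes lay between -0.199 and -0.143 with quantile normalization or cyclic loess. Of 9 further genes of polymerase I transcription, 8 and 9 were below 0. Their medians were -0.29 and -0.30. Twistnb, a polymerase subunit gene, and Taf1a, of the factor that binds the promoter of ribosomal genes, were lowest by the mean of both sexes, at -0.42 and -0.69 for the one and at -0.53 and -0.52 for the other. Taf1c and Baz2a, the latter a gene of the complex that silences ribosomal genes, were highest by that mean, at -0.21 and 0.04 in females and at -0.10 and -0.30 in males. The 9 further genes of snoRNP assembly had the lowest median of these 4 lists in females, -0.70, with all 9 below 0, and -0.32 in males, with 7. Shq1, an assembly factor of H/ACA particles, was at -1.01 in females and -0.36 in males, and Znhit3, of box C/D assembly, at -0.93 and -0.49. Nufip1 and Pih1d1, also of that assembly, were above 0 in males, at 0.05 and 0.25.

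The 36 further genes of the 40S subunit had medians of -0.37 and -0.27, with 33 below 0 in each sex. Of all genes 50.1% were below 0 in females and 47.3% in males. Utp6 and Dimt1, the latter a methyltransferase of the small subunit RNA, were at least 2-fold lower in females, at -1.03 and -1.05, and stood at -0.52 and -0.42 in males. Mphosph10, the partner of Imp3 and Imp4, stood at -0.94 and -0.64. Rrp36 and Fcf1 were the highest by the mean of both sexes, at 0.11 and -0.15 in females and at -0.12 and 0.24 in males. The 45 further genes of the 60S subunit had medians of -0.41 and -0.28, with 40 below 0 in each sex. Nol9, a kinase of rRNA processing, was at -0.73 and -0.82, and Sbds, which frees the subunit of a factor that blocks joining, at -0.67 and -0.76. Rrs1 was above 0 in both sexes, at 0.14 and 0.11, and Rrp1 in females, at 0.21.

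Neighbouring machinery was lower to different degrees. Its counts below 0 stand beside 50.1% of all genes in females and 47.3% in males. Of the members' genes of like signal, 64.7% and 68.9% were below 0. Other genes with a mean log2 signal from 8 to 9 had medians of -0.11 and -0.12. Those from 11 to 12 had medians of -0.15 and -0.14. The 13 genes of the exosome, which trims rRNA precursors, and its cofactors had medians of -0.37 and -0.20, the latter -0.052 with cyclic loess and -0.072 with quantile normalization, with Exosc7 at -0.60 and -0.36 and Exosc1 at -0.44 and -0.65. RNA polymerase III and its factors, which make 5S rRNA and tRNA, had medians of -0.30 and -0.27 (-0.131 with cyclic loess), and 21 and 18 of the 21 genes were below 0. RNA polymerase II, with a median signal of 11.95 in F, had -0.19 and -0.17, near the medians of other genes from 11 to 12. Its median in males was 0.004 with quantile normalization. Of the subunits shared by the polymerases, Polr2f was at 2-fold lower in males, at -1.0, and stood at -0.36 in females. The 74 genes of mitochondrial ribosomal proteins had medians of -0.315 and -0.285 (-0.155 with quantile normalization), with 69 and 68 below 0, and Mrpl46 was at -1.14 in females and 0.15 in males. The list of cytosolic ribosomal proteins holds only the 34 genes measured by a cluster named for 1 gene. They were much nearer 0, with medians of -0.05 in females, which was 0.020 with cyclic loess, and -0.11 in males. Fau, which encodes one of them, was the lowest in both sexes, at -0.85 and -0.69. Their summed linear signal ranged from 4850674 in MC to 5388249 in F. Some were near the top of the scale, as Rpl41 read 19.84 in F, where the highest signal was 19.85. Others were dim, with Rpl11 at 6.46 in F. From 17 to 18 in mean log2 signal, the 5th percentile of other genes was -0.337 in females, against -0.787 from 10 to 11. Whether the brightest signals understate differences was not tested. All other protein-coding genes had medians of -0.02 and 0.00.

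**Figure D4:**
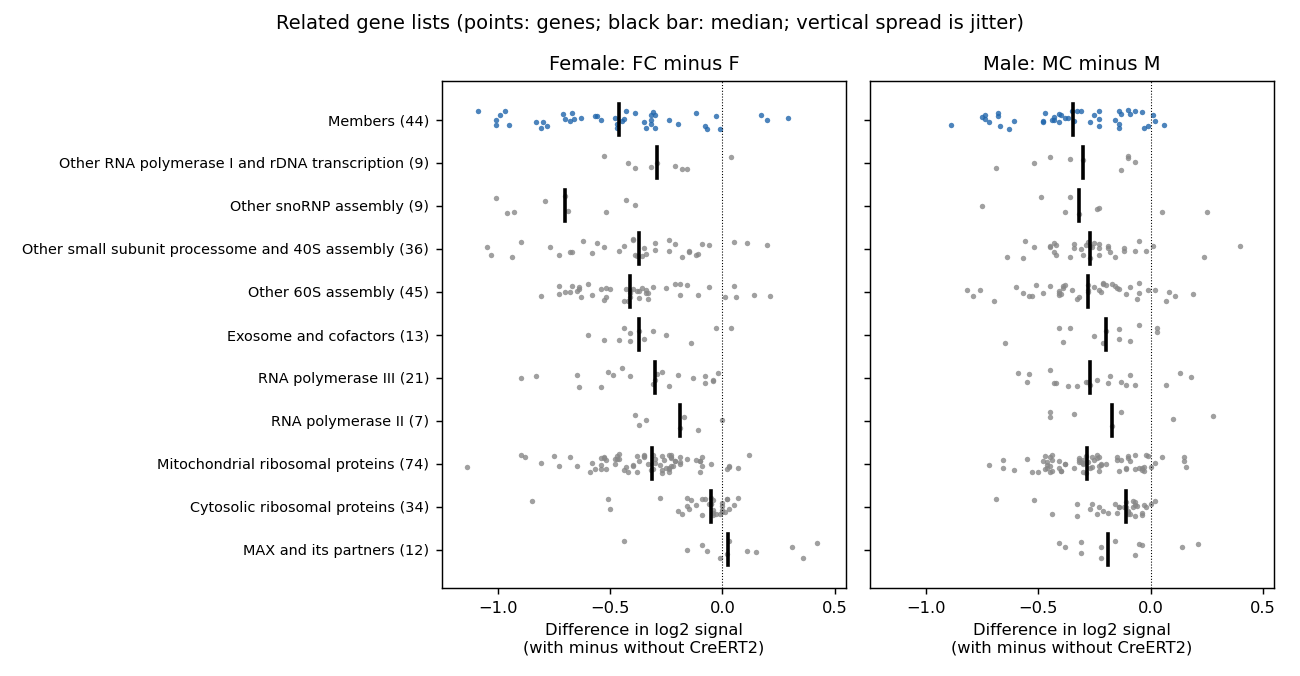
Difference in log2 signal with and without CreERT2 for the 44 members and for 10 related gene lists, in females (left) and males (right). The number of genes is in brackets, points are genes and black bars are medians. The list labelled MAX and its partners also holds Mlx and Mlxip, whose proteins are not partners of MAX. The medians of the members (-0.46 and -0.345) and of the other genes of ribosome production lie left of 0. The 34 measured cytosolic ribosomal proteins have medians of -0.05, which is 0.020 with cyclic loess, and -0.11. Some of these are near the top of the array scale.

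Max and the genes of its partners were described in a list that also holds Mlx and Mlxip, whose proteins are not partners of MAX. The 12 genes of that list had a median of 0.025 in females, which was -0.005 with median centring, and -0.19 in males. Mlx was at 0.11 in females and -0.38 in males, and Mlxip at -0.16 and -0.31. Max had the lowest value of the list in females, at -0.44, and Mxd4 the highest, at 0.42. In males Mnt had the lowest value, at -0.41. Myc, at 7.77 in F and 8.13 in FC, and 7.99 in M and 7.94 in MC, was 0.36 higher in females and at -0.05 in males.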

How the data were processed

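For each of the 4 arrays the authors deposited normalized log2 signals, 65956 transcript clusters in all, and no further scaling was applied in the main values. Robust multiarray analysis in R with background subtraction is what the Methods describe. Transcriptome Analysis Console is what the sample notes name, with no version. The array named in the Methods does not match the identifiers, so software and array type are not settled. Gene names came from the platform annotation, updated to GRCm38.p6. The 1522 clusters of several genes stayed unnamed, as did the 33142 that the annotation lacks. Each of 30738 genes took its cluster of highest mean. No filter on low signals was set.

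The difference with CreERT2 was taken within each sex, as FC minus F or MC minus M. Genes of like signal are the 1000 nearest in mean signal to each member, counted once per member. The common effect was fitted with limma over all genes (sex as a block, Benjamini-Hochberg, threshold 0.05). Members and lists were chosen with earlier results of these data known, so counts are descriptions. Signals on the 4 arrays are given for the 3 lowest members of each role and those above 0. Other list genes were picked from those at 2-fold or at the ends of their list, and not every such gene is named. Markers of cell types were not named by this rule, and Myc was chosen after its values were seen. The scripts were tested on simulated data. Alternatives were cyclic loess, median centring or quantile normalization of the arrays, the mean of clusters, other backgrounds and thresholds, F left out, and for the fit a variance trend, no sex block and a filter at the median signal. The tools were limma 3.58.1 in R 4.3.3, and numpy 2.4.6, pandas 2.3.3 and matplotlib 3.10.9 in Python 3.11.15.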

Additional observations from a re-analysis of the deposited data

Results flagged for a closer look

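In 6 members the difference between arrays with and without CreERT2 had opposite signs in the sexes, which is what singled them out. With 1 array per condition the difference was not tested. The effect in males minus that in females was -0.43 for Rrn3, -0.27 for Nol11 and -0.45 for Rrp12, which were above 0 in females. It was 0.34 for Bysl, 0.45 for Riok2 and 0.44 for Grwd1, which were above 0 in males. Rrp12 and Riok2 kept both signs under quantile normalization, median centring and cyclic loess. Rrn3 and Nol11 were above 0 in both sexes with quantile normalization and with cyclic loess, and Bysl and Grwd1 were below 0 in both with median centring.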

How the results depend on the processing

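Under quantile normalization, median centring and cyclic loess, 37 of 44 members stayed below 0 in females and 32 in males. Arrays were paired only by sex, as the block in the limma fit, because each condition has 1 array and the labels give no replicate numbers. With F left out (FC minus M), the median was -0.210 with 7 members at 1.5-fold lower, and with M left out (MC minus F) it was -0.595 with 23. In both of these the arrays also differ by sex. In males the median was -0.203 with quantile normalization, -0.208 with cyclic loess and -0.210 from the median of genes of like signal, with 4 members at 1.5-fold lower in each. Members at 1.5-fold lower in both sexes numbered 2 with quantile normalization and 2 with cyclic loess, and members at 2-fold lower in females 0 in each and 5 with median centring. These counts under other scalings, MC minus F, the distance from genes of like signal as a difference, and the background of protein-coding genes were chosen after seeing the data. At a log2 difference of 0.322 or more lower, the smallest threshold tried, there were 28 members in females and 24 in males (10.1% and 10.2% of all genes), and at 2-fold 3 and 0. The median of M minus F was -0.142 with cyclic loess. That of MC minus FC was -0.047 with cyclic loess, -0.091 with quantile normalization and -0.255 with median centring. The median difference of the effect between sexes was 0.179 with quantile normalization. The median of all genes in MC minus M turned from 0.010 to -0.040 with median centring and to -0.070 over genes of at least the median signal. Medians of 3 lists turned sign. They were the list of MAX, its partners, Mlx and Mlxip in females (-0.005, median centring) and RNA polymerase II in males (0.004, quantile normalization). The other was cytosolic ribosomal proteins in females (0.020, cyclic loess). The share of all genes at 1.5-fold lower was 5.2% in females and 4.83% in males over genes of at least the median signal. The number of members below their genes of like signal ranged from 36 to 38 in females and from 32 to 34 in males over the scalings and backgrounds tried. Members at an unadjusted p under 0.05 in limma numbered 18 to 26 over the fits, and none passed the adjusted threshold in any. Array signals have no read depth, and with 1 array per condition the precision of a difference between a pair of arrays could not be estimated.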
